A study of Vitis vinifera with 6 samples.

Results

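The genes described here act at the end of anthocyanin synthesis in the grape berry, and they were set by a fixed list of 5 identifiers out of the 35134 genes in the deposited tables. They are MYBA1 (Vitvi02g01019), DFR (Vitvi18g00988), LDOX (Vitvi02g00435), UFGT (Vitvi16g00156) and GST4 (Vitvi04g00880). The symbols come with the list, since the tables hold identifiers only. None of the identifiers (0 of 35134) occurs in the RefSeq gene table of the Pinot Noir assembly ASM3070453v1. That table does hold DFR, LDOX, UFGT and GST4 as symbols and MYBA1 as a synonym, each on the chromosome that the digits after "Vitvi" name: 18, 2, 16, 4 and 2. A shared chromosome is a weak check, and the identities rest on the list.

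Anthocyanins are the red to blue pigments that build up in the berry skin of dark grapes from veraison, the onset of ripening. The enzyme DFR reduces dihydroflavonols to leucoanthocyanidins, and LDOX oxidises these to the coloured but unstable anthocyanidins. UFGT adds a glucose and so makes the stable anthocyanins, and GST4, a glutathione S-transferase, is needed to bring them into the vacuole. MYBA1 is a MYB transcription factor that switches on UFGT, and its loss is a known cause of white-berried cultivars. DFR and LDOX also supply the synthesis of proanthocyanidins, the tannins, whereas UFGT serves anthocyanins.

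Deseeded berries of Vitis vinifera cv. Black Magic, an early black table grape grafted on 1103P, were sequenced from 6 plots of one plastic-covered vineyard. GDPH vines received a protein hydrolysate made from corn gluten, sold as a biostimulant, and urea vines were the control, both through the irrigation water at veraison and both at 1.25 kg of nitrogen per hectare. Each library pooled 10 berries from each of the 7 vines of 1 plot, taken 14 days after application, and RNA of 3 of the 4 plots given each product was sequenced. No library came from vines without added nitrogen, so every difference is between 2 nitrogen sources. Skin and flesh were not separated, so that a change of skin transcripts and a change in the share of skin in the pool cannot be told apart. Likewise, fewer cells of a type and less RNA per cell cannot be told apart.

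The 3 GDPH libraries held 15959768 to 18763377 estimated counts and the 3 urea libraries 15092687 to 16390121. The 5 genes held 579 to 13087 estimated counts per library. The exact 95% binomial interval of their share of a library was at most 8.23% of the value on either side. It covers counting error only and, for MYBA1, leaves out how reads were divided among similar genes. The spread between plots was larger than the counting error of the same gene for each of the 5. All 5 genes were abundant enough to be tested, among 16030 genes that were.

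GST4 rose, and LDOX and MYBA1 overlapped between the treatments. UFGT and DFR had higher values in every GDPH plot with TMM scaling, though not on library totals or TPM, without passing the test. By edgeR's quasi-likelihood test with Benjamini-Hochberg adjustment over all 16030 genes at 0.05, 1 of the 5 genes was called higher and 0 lower, against 6.45% of all tested genes called higher and 8.23% called lower. At an unadjusted p under 0.05 the counts were 3 of the 5 genes and 5044 of the 16030. On the scale of the test, CPM (counts as a share of the library) scaled by TMM (edgeR's trimmed mean of M-values), 3 of the 5 genes lay entirely higher in the GDPH libraries, as did 18.5% of all tested genes. The median log2 fold change was 0.46 over the 5 genes and -0.0050 over all tested genes.

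**Figure D1:**
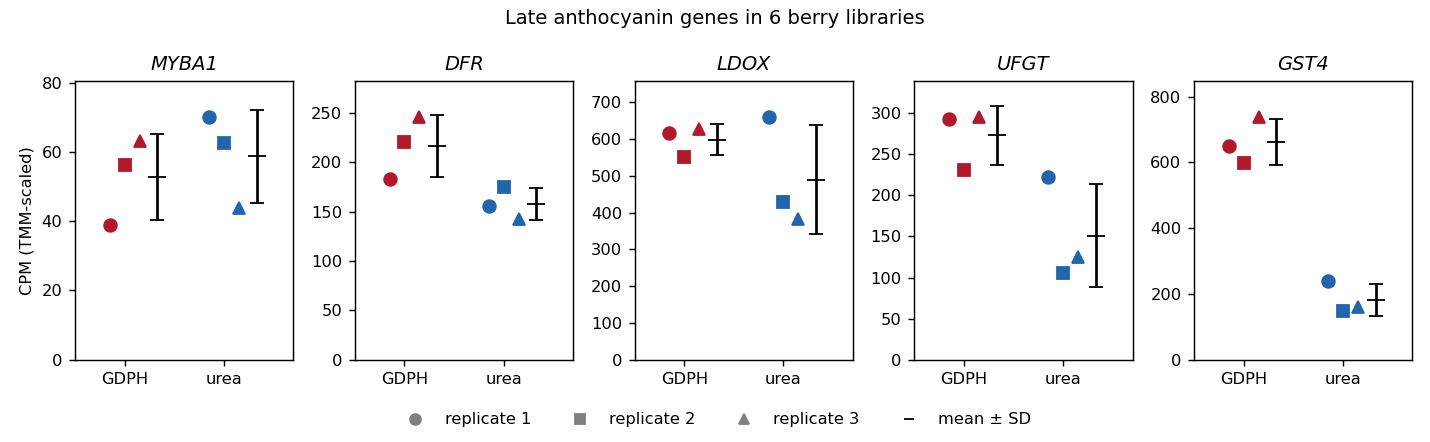
TMM-scaled CPM of each gene (vertical axes from 0, one scale per panel) in the 3 GDPH plots and the 3 urea plots, with marker shape for the replicate number and the black bar for the mean ± SD (n = 3). GST4 lies between 597 and 737 CPM under GDPH and between 148 and 238 CPM under urea, while MYBA1 overlaps between the treatments.

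The regulator MYBA1 had 39.0, 56.3 and 63.2 CPM in the GDPH plots, against 70.1, 62.6 and 43.8 CPM in the urea plots. The lowest plot of all was GDPH replicate 1 and the highest urea replicate 1, and the groups overlapped. The mean was 52.9 ± 12.5 CPM under GDPH and 58.8 ± 13.5 CPM under urea (SD, n = 3), so that the fitted log2 fold change was -0.15 with an SE of 0.23 (adjusted p = 0.70, edgeR). The 95% interval of this change ran from -0.70 to 0.39, which corresponds to 0.615- to 1.31-fold, so the data allow changes of that size in either direction. Without GDPH replicate 1 the log2 fold change was 0.033.

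DFR, the first enzyme of the 3, had 183, 221 and 246 CPM in the GDPH plots, against 155, 175 and 143 CPM in the urea plots. The groups did not overlap on this scale, although GDPH replicate 1 and urea replicate 2 were 183 and 175 CPM. The mean was 217 ± 31.3 CPM under GDPH and 158 ± 16.5 CPM under urea (SD, n = 3). The log2 fold change of 0.46 (SE 0.13), or 1.37-fold, missed the threshold by edgeR's test (adjusted p = 0.059). It passed with the replicate number as a block (log2 fold change 0.45, SE 0.12, adjusted p = 0.044, edgeR). It also passed when GDPH replicate 1 was left out (0.57, adjusted p = 0.035, edgeR). With DESeq2 the adjusted p was 0.018. DFR did not pass in the other 13 of 16 alternatives, among them library totals alone (0.30, adjusted p = 0.19, edgeR).

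LDOX had 616, 551 and 629 CPM in the GDPH plots, against 659, 428 and 383 CPM in the urea plots. Urea replicate 1 stood above every GDPH plot and the other 2 urea plots stood below them all. The GDPH plots were closely grouped, with a mean of 598 ± 41.7 CPM against 490 ± 148 CPM under urea (SD, n = 3), or coefficients of variation of 6.98% and 30.3%. The log2 fold change was 0.29 (SE 0.20, 95% interval -0.19 to 0.77, edgeR adjusted p = 0.38). Without urea replicate 1 it was 0.56 and passed the test (edgeR adjusted p = 0.035). LDOX did not pass in the other 15 of 16 alternatives.

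UFGT, which makes the stable glucoside, had 293, 232 and 295 CPM in the GDPH plots, against 223, 105 and 125 CPM in the urea plots. GDPH replicate 2 and urea replicate 1 lay close together, and the other 2 urea plots were well below. The mean was 273 ± 36.1 CPM under GDPH and 151 ± 63.1 CPM under urea (SD, n = 3), which is 1.81-fold (log2 fold change 0.85, SE 0.29, edgeR adjusted p = 0.096). UFGT passed with the replicate block (0.92, SE 0.19, edgeR adjusted p = 0.029), with DESeq2 (adjusted p = 0.013) and when urea replicate 1 was left out (1.25, adjusted p = 0.014, edgeR). The other 13 of 16 alternatives left it above the threshold, among them library totals alone (0.69, adjusted p = 0.14, edgeR).

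GST4 had 651, 597 and 737 CPM in the GDPH plots, against 238, 148 and 160 CPM in the urea plots. The lowest GDPH plot was at 597 CPM and the highest urea plot at 238 CPM, so the groups were far apart. The mean was 661 ± 70.7 CPM under GDPH and 182 ± 48.6 CPM under urea (SD, n = 3). GST4 was 3.63-fold higher under GDPH (log2 fold change 1.86, SE 0.20, 95% interval 1.40 to 2.32, edgeR adjusted p = 0.0053). Of all tested genes 0.848% had a larger log2 fold change, against 3.82% for UFGT, 10.7% for DFR, 19.3% for LDOX and 63.6% for MYBA1. The call held under all 16 alternatives tried, where the fitted change ran from 1.60 to 2.10 on the log2 scale.

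**Figure D2:**
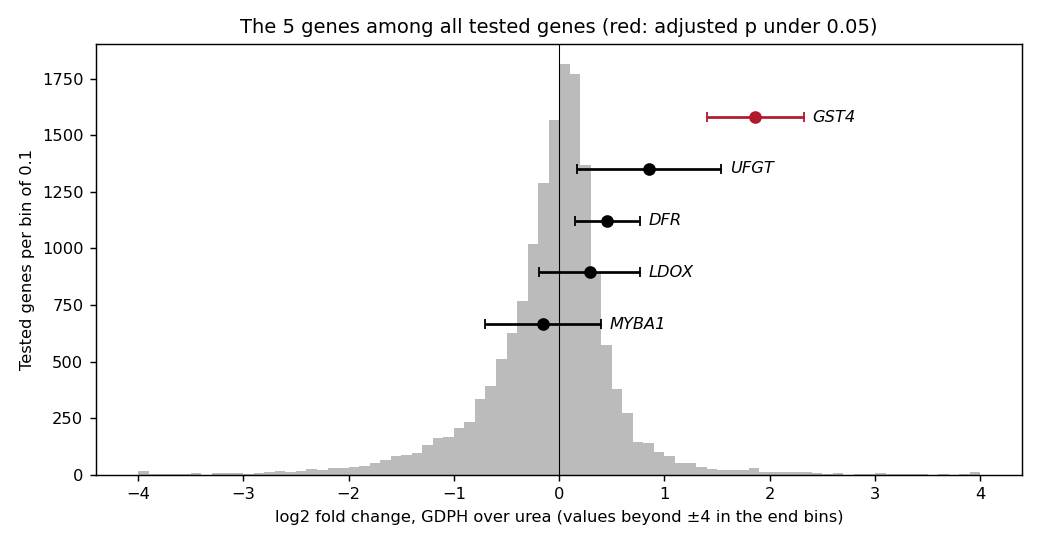
Distribution of the log2 fold change, GDPH over urea, over the 16030 tested genes (grey, genes per bin) with the 5 genes and their 95% intervals drawn above it at arbitrary heights, red where the adjusted p is under 0.05. GST4 at 1.86 stands in the right tail and MYBA1 at -0.15 near the middle.

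Over all tested genes, plots of the same replicate number deviated together across treatments, so that a blocked fit was set beside these values. All 5 genes did so only in replicate 2. In replicate 3 each of them deviated in opposite directions under the 2 products, as did MYBA1 and GST4 in replicate 1. The block raised the SE of MYBA1 from 0.23 to 0.29 and lowered that of the other genes. Whether the numbers pair plots in the field is not stated in the labels, and chance was not tested. With the block 3 of the 5 genes (GST4, UFGT and DFR) were called higher, against 9.81% of all tested genes. The same 3 genes were called by DESeq2, which called 9.49% of all tested genes higher. Without urea replicate 1 the called genes were GST4, UFGT and LDOX, against 3.49% of all genes tested then. Without GDPH replicate 1 they were GST4 and DFR, against 3.85%. These were 4 of 16 alternatives, and in the other 12 GST4 was the only one of the 5 genes called.

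The scale moved all 5 values together. With library totals as the only scaling, the median over all tested genes was a log2 fold change of -0.17, and on log2(TPM + 1), where TPM is relative to transcript length as well as to the library, it was -0.25. On log2(TPM + 1) DFR was at 0.17 and LDOX at 0.044. Relative to the median of all tested genes, GST4 was at 1.86 with TMM, 1.87 with library totals and 1.85 on log2(TPM + 1). UFGT was likewise at 0.86, 0.86 and 0.89, DFR at 0.46, 0.47 and 0.42, LDOX at 0.29, 0.30 and 0.29, and MYBA1 at -0.15, -0.14 and -0.19. On plain TPM, 1 of the 5 genes, GST4, lay entirely higher in the GDPH libraries, against 5.22% of all tested genes, since UFGT and DFR then overlapped. UFGT and DFR also overlapped on library totals.

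**Figure D3:**
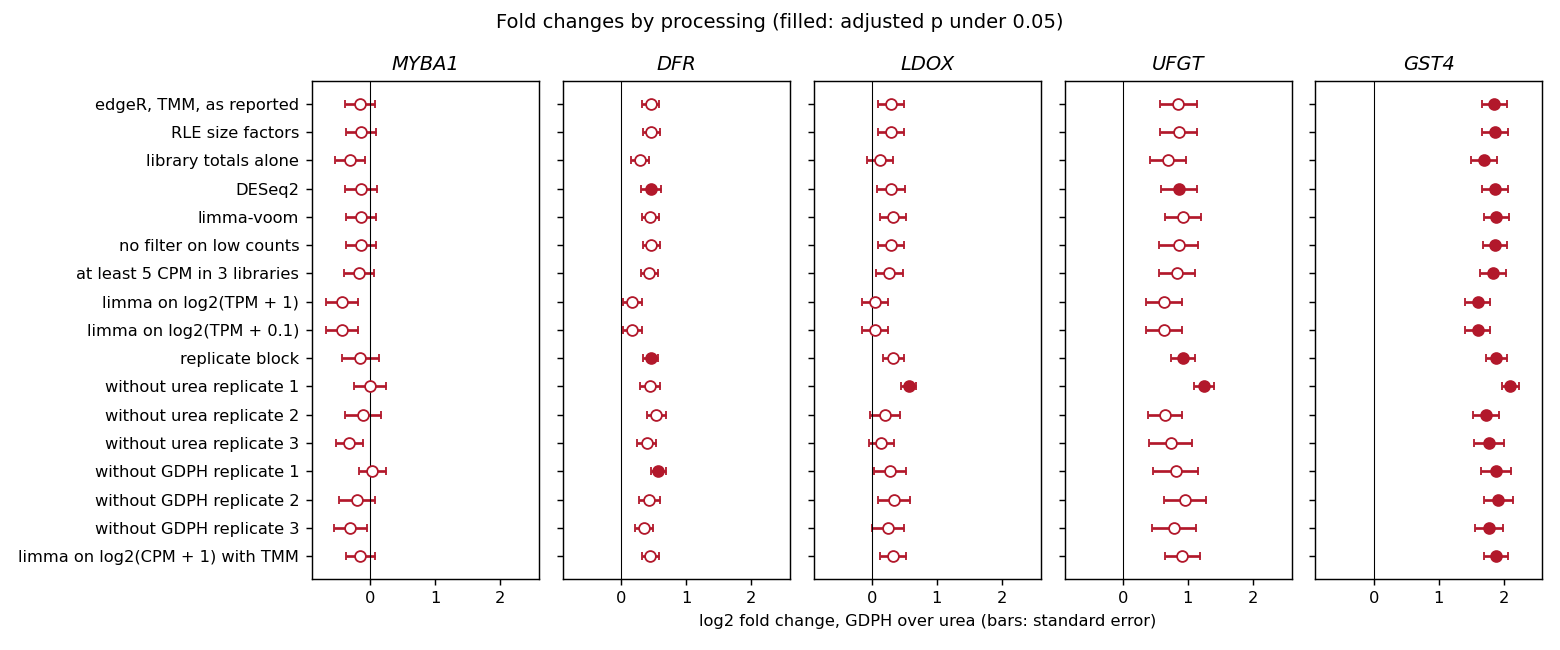
Log2 fold change, GDPH over urea (horizontal axes), of the 5 genes in the reported fit and 16 alternative settings (rows), with standard errors as bars and filled markers where the adjusted p is under 0.05. GST4 is filled in every row, while DFR, UFGT and LDOX are filled in some and MYBA1 in none.

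TPM allows levels to be compared between genes. Under GDPH, GST4 was at 891, 822 and 1069 TPM and was the most abundant of the 5 in all 3 plots, against 399, 254 and 275 TPM under urea, where LDOX was the most abundant in all 3 plots. Among all genes GST4 ranked 74 to 94 by TPM in the GDPH libraries and 322 to 594 in the urea libraries. LDOX was at 427 ± 39.1 TPM under GDPH and 424 ± 122 TPM under urea (SD, n = 3), with ranks of 216 to 266 and 186 to 401. UFGT followed at 232 ± 34.4 TPM under GDPH and 155 ± 62.6 TPM under urea. DFR was at 167 ± 29.0 TPM under GDPH and 148 ± 15.8 TPM under urea. MYBA1 was at 95.3 ± 24.9 TPM under GDPH and 129 ± 28.4 TPM under urea (SD, n = 3 each).

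The order of the 5 genes was GST4, LDOX, UFGT, DFR, MYBA1 in all 3 GDPH libraries. Under urea LDOX and GST4 came first and second in every library, while the order of UFGT, DFR and MYBA1 differed in each. Those 3 genes do not have a settled order under urea beyond the spread between plots. As a share of the summed TPM of the 5 genes, GST4 took 50.1% ± 0.781 under GDPH and 26.5% ± 1.99 under urea. LDOX took 23.2% ± 1.10 under GDPH and 36.1% ± 1.76 under urea, and MYBA1 5.14% ± 1.11 under GDPH and 11.1% ± 1.86 under urea (SD, n = 3). UFGT took 12.5% ± 1.09 under GDPH and 13.1% ± 2.39 under urea. DFR took 9.05% ± 1.14 under GDPH and 13.1% ± 3.17 under urea, although its mean TPM was higher under GDPH. The shares are parts of one sum, so a larger share of GST4 leaves less for the others. A lower share therefore need not mean a lower level. The summed TPM was 1669 to 2108 under GDPH and 972 to 1484 under urea. GST4 alone differed between the treatment means by more than the other 4 genes together.

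**Figure D4:**
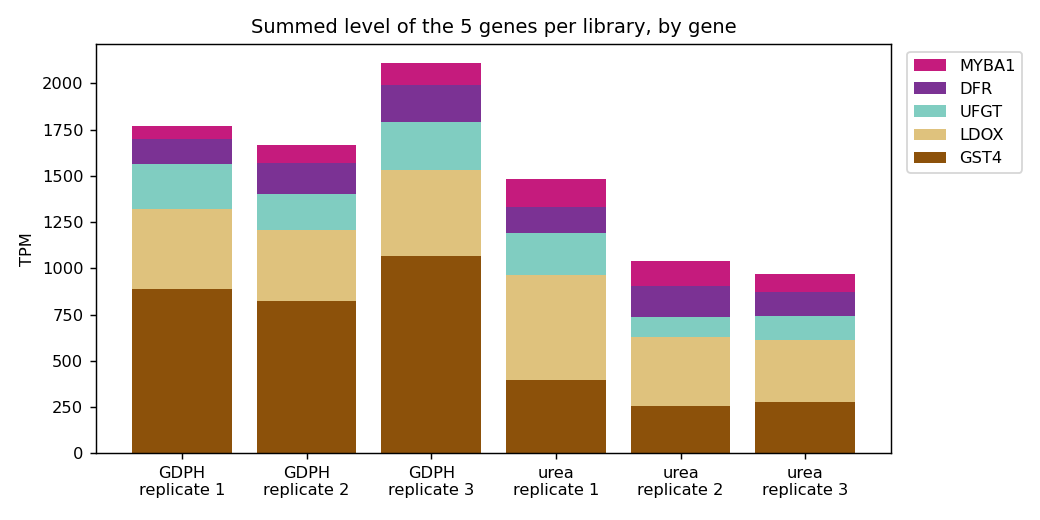
Summed TPM of the 5 genes in each library (vertical axis from 0), divided by gene, with the 3 GDPH libraries left of the 3 urea libraries. GST4, the lowest block, makes up 49.2 to 50.7% of the bar under GDPH and 24.4 to 28.3% under urea.

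Ratios within a library do not depend on the scaling of that library, and 7 were formed, each gene to LDOX and to MYBA1. GST4 to LDOX was 2.07, 2.12 and 2.30 in the GDPH plots, against 0.707, 0.680 and 0.822 in the urea plots. UFGT to LDOX was 0.565, 0.500 and 0.558 in the GDPH plots, against 0.402, 0.293 and 0.387 in the urea plots. Both ratios were higher in every GDPH plot, including the comparison with urea replicate 1, in which the levels of all 3 genes were the highest of the urea plots. Among all other tested genes, 2.45% had a TPM ratio to LDOX that was entirely higher in the GDPH plots. DFR to LDOX overlapped, at 0.392 ± 0.0611 under GDPH and 0.366 ± 0.0990 under urea (SD, n = 3).

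GST4, UFGT and DFR all stood higher relative to the estimate of MYBA1 alone in every GDPH plot. That estimate holds fractional counts, and every ratio with MYBA1 depends on it. Summed with the neighbouring genes that hold fractional counts, MYBA1 had a log2 fold change of 0.60 in place of -0.15. GST4, UFGT and DFR were at 1.86, 0.85 and 0.46, and ratios to the sum were not formed. GST4 to MYBA1 was 13.0, 8.25 and 9.08 in the GDPH plots, against 2.64, 1.84 and 2.85 in the urea plots. UFGT to MYBA1 was 3.55, 1.94 and 2.20 in the GDPH plots, against 1.50, 0.793 and 1.34 in the urea plots. DFR to MYBA1 was 2.02, 1.68 and 1.67 in the GDPH plots, against 0.950, 1.20 and 1.39 in the urea plots. These 3 ratios did not overlap between the treatments, and 6.23% of all other tested genes had a ratio to MYBA1 that was entirely higher under GDPH. MYBA1 to LDOX was 0.223 ± 0.0552 under GDPH and 0.309 ± 0.0539 under urea (SD, n = 3) and lower in every GDPH plot, against 21.2% of all other tested genes. The groups nearly met, with GDPH replicate 2 at 0.257 and urea replicate 1 at 0.268. For each of the 6 ratios without overlap the two-sided exact permutation p was 0.10, the smallest that 3 against 3 plots allow (0.12 after Benjamini-Hochberg adjustment over the 7 ratios), so none passed 0.05.

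The plots of one treatment differed in a shared way for GST4, UFGT and LDOX. Within urea, replicate 1 stood above the mean log2 CPM of its treatment by 0.64 for UFGT, 0.47 for LDOX and 0.42 for GST4, and the other 2 urea plots stood below it for all 3 genes. Within GDPH, replicate 2 was the lowest plot for the same 3 genes, by -0.23, -0.12 and -0.14. DFR and MYBA1 had another order within GDPH, with replicate 1 the lowest plot for both, at -0.23 and -0.41. Within urea, replicate 3 was the lowest plot for both, at -0.14 and -0.40, as it was for LDOX, at -0.31. MYBA1 was highest in urea replicate 1 too, by 0.28, whereas DFR was highest in urea replicate 2, by 0.16. UFGT had a biological coefficient of variation of 0.261, above that of 78.0% of all tested genes, and DFR, at 0.153, had the lowest of the 5.

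MYBA1 was the only one of the 5 genes with fractional counts, in all 6 libraries, which arise when reads are divided among similar genes. The RefSeq table gives MYBA1 and MYBA3 as synonyms of a single gene, and the level of MYBA1 is uncertain for this reason. Within 10 identifier numbers of it, a window chosen after its values were seen, 2 further genes held fractional counts, and no table in use names them. Vitvi02g01015, 4 numbers before MYBA1, had 76.4, 98.2 and 132 CPM in the GDPH plots, against 57.2, 41.7 and 41.8 CPM in the urea plots. It rose 2.18-fold (log2 fold change 1.12, SE 0.22, edgeR adjusted p = 0.023). With the replicate block the log2 fold change was 1.11 (SE 0.27) and missed the threshold (adjusted p = 0.056, edgeR). It likewise missed it at 1.05 without urea replicate 2, 1.05 without urea replicate 3 and 1.14 without GDPH replicate 2 (adjusted p = 0.087, 0.069 and 0.068, edgeR). Vitvi02g01024, 5 numbers after MYBA1, had 21.6, 26.9 and 32.8 CPM in the GDPH plots, against 20.3, 14.8 and 7.16 CPM in the urea plots (log2 fold change 0.94, SE 0.37, edgeR adjusted p = 0.14). By DESeq2 it passed (0.95, adjusted p = 0.039), but not in the other 15 of 16 alternatives. With TMM scaling both genes lay entirely higher under GDPH, as did 18.5% of all tested genes, but Vitvi02g01024 overlapped on library totals and on TPM. When the counts of MYBA1 and these 2 genes were summed, the log2 fold change was 0.60 (SE 0.23, edgeR adjusted p = 0.13), the opposite sign to MYBA1 alone. How the reads were divided among the 3 genes was not tested.

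**Figure D5:**
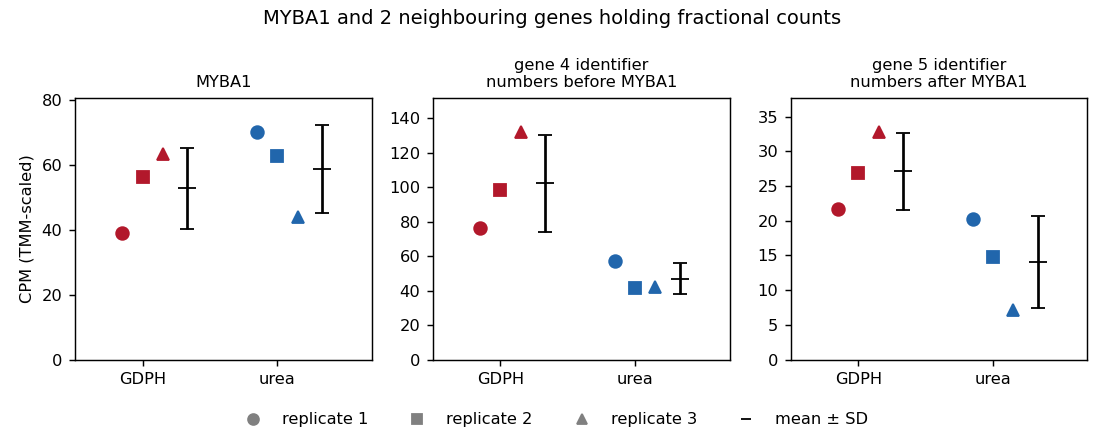
TMM-scaled CPM of MYBA1, Vitvi02g01015 (4 identifier numbers before) and Vitvi02g01024 (5 after) in the GDPH and urea plots, with marker shape for the replicate number and the black bar for the mean ± SD (n = 3). Vitvi02g01015 lies between 76.4 and 132 CPM under GDPH and between 41.7 and 57.2 CPM under urea, while MYBA1 overlaps.

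The genes most like the 5 in pattern were sought over the 6 libraries, by Pearson correlation of log2 CPM with the mean of the 5 standardised profiles, among 16025 other tested genes. That mean profile itself overlapped between the treatments, at 0.19 to 0.95 under GDPH and -1.15 to 0.20 under urea, with urea replicate 1 as the highest urea plot. Vitvi17g01232 was the most alike (r = 0.991, 6 libraries), followed by Vitvi19g00760 (r = 0.984). Vitvi17g01232 was a low-level gene, at 3.52 to 6.31 CPM over the 6 libraries, and did not pass the test (edgeR adjusted p = 0.19). Vitvi19g00760 had 88.8, 112 and 116 CPM in the GDPH plots, against 91.9, 64.8 and 54.6 CPM in the urea plots, and did not pass the test (log2 fold change 0.58, edgeR adjusted p = 0.10). Vitvi01g00050 and Vitvi14g01025 ran most opposite (r = -0.997 and -0.992). These likenesses are a description of 6 libraries and carry no test.

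A list of 26 other genes and gene names of the flavonoid pathway, among them chalcone synthase, flavonoid hydroxylases, the anthocyanin O-methyltransferase and acyltransferase, and further MYB, MYC and WDR regulators, was not analysed here, because 0 of them could be paired with an identifier. Genes that mark the skin or the seed were not analysed either, since no markers were given.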

How the data were processed

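Per the labels' protocols, mRNA libraries keeping the strand were made from pooled deseeded berries. The submitters' processing notes name STAR 2.7.9a and RSEM 1.3.3. For the build and annotation release, nothing is stated in the labels or file headers. The counts the authors deposited are unscaled estimated counts (expected counts), and 3053 of 35134 genes held a fractional one. The authors also deposited TPM, a value per transcript length and library total.

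Estimated counts were rounded. Genes were filtered with filterByExpr (minimum count 10, minimum total 15), scaled by TMM (factors 0.932 to 0.969 for GDPH and 1.05 to 1.06 for urea) and tested over 16030 genes with the robust quasi-likelihood F test of edgeR. Benjamini-Hochberg adjustment ran over all of these, at a threshold of 0.05. Standard errors are the log2 fold change divided by the square root of F, and intervals use the moderated degrees of freedom. Versions were edgeR 4.0.16, DESeq2 1.42.0 and limma 3.58.1 under R 4.3.3, and scipy 1.17.1 under Python 3.11.15.

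Same-numbered GDPH and urea libraries deviated together from their treatment means, and the correlation over genes was 0.337 for replicate 1, 0.426 for replicate 2 and 0.193 for replicate 3, while pairs of unlike number gave -0.320 to 0.0084. The numbers were fitted as a block on this ground, beside the unblocked fit. Deviations within a treatment cancel out, so positive values for like numbers push the values for unlike numbers down. Few pairings of 3 plots with 3 exist, so the pairing by number can come out best by chance, which was not tested. This pairing was found in the data: a block layout is described in the labels, but they do not tie the number to it.

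The 5 genes and the lists were chosen with earlier results of these data known. All 5 were named, with the 2 most alike and 2 most opposite genes in pattern. The alternatives were RLE factors, library totals, DESeq2, limma-voom, 2 other filters, the block, limma on log2(TPM + 0.1) and log2(TPM + 1), and each library left out. The limma test on log2(CPM + 1), the sum with neighbouring genes, the ratios without each library and the alternatives for the neighbours were added after seeing the data. No sequences are shown, since none were used here.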

Additional observations from a re-analysis of the deposited data

How the results depend on the processing

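GST4 kept its call in all 16 settings. The replicate block gave DFR 0.45, UFGT 0.92, 3 called genes of the 5 and 3534 called genes in all, and Vitvi02g01015 missed the threshold with it; among the 5 genes and the 2 neighbours of MYBA1 it changed no other call. DESeq2 gave DFR 0.46, UFGT 0.86 and 3 called genes of the 5. The limma test on log2(TPM + 1) called 4251 genes in all and on log2(TPM + 0.1) 4168, against 2353 as reported; limma on log2(CPM + 1) stayed within 1.5 times. Leaving out 1 library gave 555 (without urea replicate 2) to 1443 (without GDPH replicate 3) called genes in all and 1 to 3 of the 5. The log2 fold changes then ran from 0.35 to 0.57 for DFR, 0.14 to 0.56 for LDOX, 0.65 to 1.25 for UFGT, 1.73 to 2.10 for GST4 and -0.325 to 0.0331 for MYBA1, which changed sign without GDPH replicate 1 and, at 0.604, when summed with its neighbours. The causes were not tested, although fewer libraries lower the power by construction. Of the log2 differences in ratio, DFR to LDOX was -0.118 without urea replicate 1, against 0.125 with all libraries, and MYBA1 to LDOX was -0.261 without GDPH replicate 1, against -0.487. Depth limited none of the 5 genes, each with at least 579 estimated counts per library.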
